A study of Salmo salar with 8 samples.

Results

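Ion channel genes were followed across the nuclei of Atlantic salmon gill during smoltification, the photoperiod-driven change from freshwater parr to seawater smolt. They were chosen by name alone: every gene of the count tables whose symbol begins with the prefix of a potassium, chloride, calcium, sodium, acid-sensing, anoctamin, TRP or intracellular calcium release channel family. The rule found 25 genes among 34514, of which 6925 carry a symbol as their identifier, so channel genes listed only under a locus number were not members. No HCN, ITPR or PIEZO gene was found by name. Single-gene statements were kept to the 21 genes with at least 30 UMIs (unique molecular identifiers, each standing for 1 captured transcript) over all samples.

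The data were single-nuclei libraries from frozen gill, with 2 samples at each of 4 time points. Fish had been raised in freshwater under constant light and were sampled as parr at T1. By the labels (the study's methods count somewhat fewer days for both light periods), T2 followed 8 weeks of short photoperiod (8 h light and 16 h dark), T3 a further 8 weeks back in constant light, and T4 an additional 24 h in seawater. Whether a sample came from 1 fish or from pooled fish was not stated in the sources used here, so that p-values measure only the spread between these samples, which may be technical. All fish belonged to 1 commercial strain, and the only seawater samples were T4.

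Ion channels let ions cross membranes down their electrochemical gradients, and each family answers to its own cue, such as voltage, protons, heat, stretch, calcium or a G protein. Not all of them sit at the cell surface: several chloride transporters, anoctamins and calcium release channels work on endosomes, lysosomes or the endoplasmic reticulum. In the teleost gill, salt transport is the work of mitochondrion-rich cells (MRCs). In seawater their apical chloride channel and basolateral potassium channels act with the sodium pump and the cotransporter Nkcc1a to release salt. In freshwater, as the study describes, MRCs take up sodium and chloride instead. Some names of the list stand for partners rather than pores: kcnip2 and kcne4 encode accessory proteins of voltage-gated potassium channels, scn2b and cacna2d4 auxiliary subunits, and trpc4ap a protein that binds a TRP channel.

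The 8 libraries held 19709 nuclei and 27390978 UMIs, with 1748 to 3373 nuclei and 2770081 to 4383507 UMIs per sample and a median of 638 to 1031 UMIs per nucleus. A gene is listed for a sample only where at least 3 of its nuclei hold a count, so a value of 0 below can mean up to 2 nuclei. The 2 T2 samples differed in makeup: pavement-like nuclei were 25.8% and 9.84% of the sample, and T cell-like nuclei 5.19% and 23.9%. Of the barcodes, 49 occurred in more than 1 library, and no 2 libraries shared more than 6. Hemoglobin transcripts, typical of red cells, were 0.406% to 1.34% of UMIs per library. Free RNA can give nuclei of any kind some UMIs of a gene, and no correction for it was made. The lowest level over clusters is therefore given beside the highest for many genes.

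Nuclei fell into 20 clusters, made without the 25 ion channel genes named by symbol. Channel genes listed only under a locus number were not left out. By markers, cluster 1 was pavement cell-like (6 of 6 markers higher than in the other nuclei, from a table the study made on these nuclei), 2 T cell-like (8 of 8), 6 pillar cell-like (13 of 13, mostly collagens, with tnmd and aspn among its leading genes), 7 MRC-like (10 of 11), 10 goblet cell-like (3 of 4), and 13 and 15 myeloid or dendritic cell-like (3 of 5 each). In cluster 6, 3 of 5 smooth muscle or pericyte markers and 3 of 7 cartilage or bone markers were also raised. Cluster 16 was cartilage or bone cell-like (5 of 7) and 17 ionocyte-like (7 of 11, by the same list as cluster 7). Cluster 18 was vascular endothelial cell-like (8 of 9, with 2 of 3 lymphatic endothelial markers also raised). Cluster 20, with 42 nuclei, was skeletal muscle-like (4 of 4). The other 9 clusters were left unnamed and are given by number, with the genes that lead them where useful. Levels are UMIs of a gene per 1000000 UMIs of the same cluster and sample (CPM), given as the mean ± SD over 8 samples. Cluster 20 had too few nuclei per sample for such means. Because clusters were made from the same nuclei, where a gene was highest is a description, with no test.

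The channel genes were thinly sampled. Together they held 12334 UMIs, 0.045% of the total, in 7624 nuclei, and their summed level over all nuclei lay between 412 and 478 CPM in the 8 samples. The 10 with the most UMIs held 89.2% of these, from clcn3 (3337) and kcnk1 (1775) through clic4 (974), ano5 (925), trpc4ap (873), kcnk6 (751), trpv1 (680), clcn6 (635) and trpv4 (543) to asic1 (515). A further 11 lay between 307 UMIs (clic2) and 46 (kcnq3). The remaining 4 were under the limit and are only listed: kcne4 (28), clcn7 (15), kcng3 (11) and scn2b (4).

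**Figure D1:**
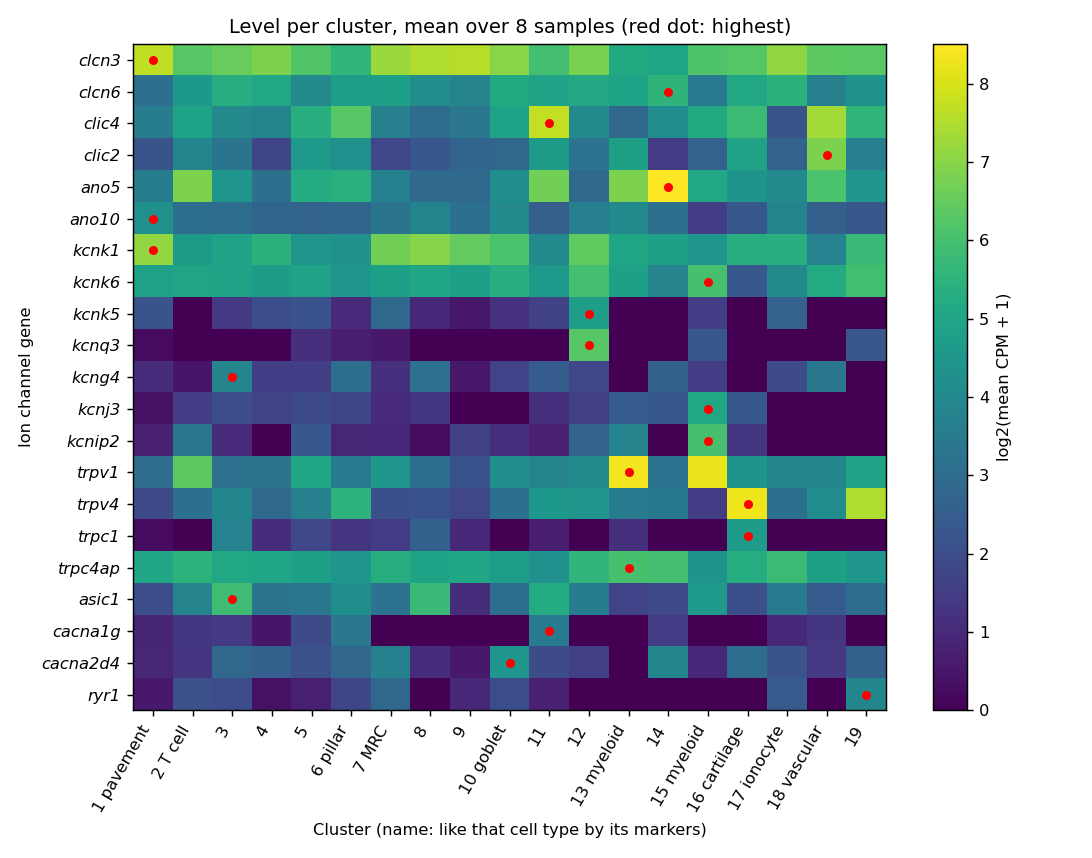
Level of the 21 ion channel genes with at least 30 UMIs (vertical axis, by family) in the 19 clusters with at least 10 nuclei in every sample (horizontal axis). Colour is log2(mean CPM + 1) over 8 samples and a red dot marks each gene's highest cluster. The rows of trpc4ap and clcn6 have no single bright cell, while ano5, trpv1, trpv4, clic4 and kcnq3 have 1 or a few bright cells, and no red dot stands over the MRC-like or ionocyte-like clusters 7 and 17.

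The genes differed in how narrowly they were placed. Only ano5 and trpv4 had the same cluster highest in at least 7 of 8 samples, and none had it in all 8. When replicates 1 and replicates 2 were averaged apart, 12 of 21 genes had the same highest cluster in both. Of the 21, 7 were highest in cluster 13, 14 or 15, and 0 in the MRC-like cluster 7 or the ionocyte-like cluster 17. The name rule has no prefix for CFTR, a chloride channel whose expression the study localizes to MRCs, so the 0 does not cover it. Among the 7, trpc4ap, kcnk6 and clcn6 were above the next cluster in only 4 of 8 samples, on 21, 10 and 15 UMIs. A further one, kcnj3, rested on 9 UMIs. Clusters 13, 14 and 15 were small, with 1.27%, 1.45% and 1.19% of all UMIs. The share of all genes highest in them was not computed, so the counts show no enrichment.

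Among chloride transporters, clcn3, in mammals an endosomal chloride-proton exchanger, was found in every cluster and was highest in pavement-like nuclei. In pavement-like cluster 1 its level was 205 ± 20.6 CPM, with 178 the lowest and 249 the highest sample, and it was 191 ± 55.5 in cluster 9 and 181 ± 29.4 in cluster 8. Clusters 1 and 9 did not differ beyond their spread, cluster 1 being higher in 4 of 8 samples. Cluster 8 (led by genes that include the carbonic anhydrase cah12) had all 6 pavement markers raised and the deepest nuclei, with a median of 2285 UMIs. Clusters 1, 8 and 9 together held 50.8% of clcn3 UMIs and 32.9% of all UMIs, and the lowest level was 30.8 CPM, in cluster 14. The late endosomal exchanger clcn6 had no cluster that stood apart: it ran from 7.66 CPM in cluster 1 to 45.4 ± 36.1 in cluster 14, where it was above the next cluster in 4 of 8 samples.

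The CLIC genes, which encode proteins found both soluble and at membranes, were highest in clusters 11 and 18. Cluster 11, which is led by genes that include cld5 and the ammonia transporter gene rhag (LOC106571195), held clic4 at 210.0 ± 42.8 CPM, with a range of 161 to 285 over samples. The vascular-like cluster 18 came next with 159 ± 70.6 CPM, and cluster 11 was the higher of the 2 in 6 of 8 samples. These 2 clusters held 37.7% of clic4 UMIs and 6.5% of all UMIs, and the lowest level was 3.63 CPM, in the ionocyte-like cluster 17. The related clic2 was also highest in cluster 18, at 113 ± 79.0 CPM against 28.8 ± 13.3 in the cartilage-like cluster 16, and higher there than in cluster 16 in 7 of 8 samples. Its samples in cluster 18 were 186 and 138 CPM at T1, 132 and 245 at T2, 42 and 80.6 at T3, and 0 and 81.8 at T4. The 4 later samples all lay under the 4 earlier ones, but clic2 did not pass the filter on low counts in cluster 18 and the difference was not tested there.

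The anoctamins, membrane proteins that in mammals scramble phospholipids or conduct chloride, included the 1 gene, ano5, whose highest cluster lay above the next in all 8 samples. In cluster 14 ano5 stood at 363 ± 135 CPM, above T cell-like cluster 2 (113 ± 58.4) in all 8 samples and above every cluster in 7. Myeloid-like cluster 13 followed with 112 ± 71.9 CPM. Cluster 14 held 18.4% of ano5 UMIs and 1.45% of all UMIs, and the lowest level was 6.43 CPM, in cluster 9. The cluster was not named: 3 of 5 myeloid or dendritic markers and 2 of 3 lymphatic endothelial markers were raised in it, and spic, a transcription factor gene of mammalian red pulp macrophages, was among its leading genes. By contrast ano10 was low everywhere, from 1.95 to 18.3 ± 6.05 CPM, highest in pavement-like cluster 1.

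Potassium channels divided into broad and narrow genes. The tandem-pore channel kcnk1, which in mammals carries background potassium current, followed clcn3: 138 ± 33.2 CPM in pavement-like cluster 1 and 123 ± 24.5 in cluster 8, with cluster 1 higher in 6 of 8 samples, 60.2% of UMIs in clusters 1, 8 and 9, and a lowest level of 12.7 CPM in vascular-like cluster 18. Its relative kcnk6 was spread over all clusters at 4.06 to 64.1 ± 74.4 CPM. The relative kcnk5, whose mammalian counterpart responds to external pH, was highest in cluster 12 at 26.3 ± 32.3 CPM, with 13 of its 75 UMIs.

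In cluster 12, 2 of 3 markers taken from the study's neuroepithelial cluster, which it defines by Notch1, Occludin and Hes1, were raised. In vascular-like cluster 18, 2 of 3 were raised as well. Cluster 12 also held most of kcnq3, a voltage-gated subunit of the neuronal M current in mammals. It held 34 of 46 kcnq3 UMIs (73.9%) in 2.5% of the nuclei. Samples there were 149.9 and 160.1 CPM at T1, 102 and 161 at T2, 0 and 49.4 at T3, and 0 in both T4 samples, from 9, 12, 2, 8, 0, 3, 0 and 0 UMIs. At T4 the gene was not listed in either sample, although cluster 12 had 35 and 57 nuclei there. All T1 and T2 samples thus lay above all T3 and T4 samples, on 34 UMIs in all.

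The other potassium genes rest on few UMIs. In myeloid-like cluster 15 the channel-interacting protein gene kcnip2 reached 64.1 ± 43.9 CPM, from 21 of its 65 UMIs, and was above the next cluster, the likewise myeloid-like 13, in 6 of 8 samples. Cluster 15 was also highest for kcnj3, a G protein-gated inward rectifier subunit, at 32.9 ± 54.8 CPM, where 9 of 55 UMIs fell and 1 T4 sample gave 162 CPM from a cluster of 10 nuclei. The modifier subunit gene kcng4 was highest in cluster 3 at 13.7 ± 9.02 CPM (35 of 124 UMIs). For kcnj3 the SD over samples exceeded the mean.

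**Figure D2:**
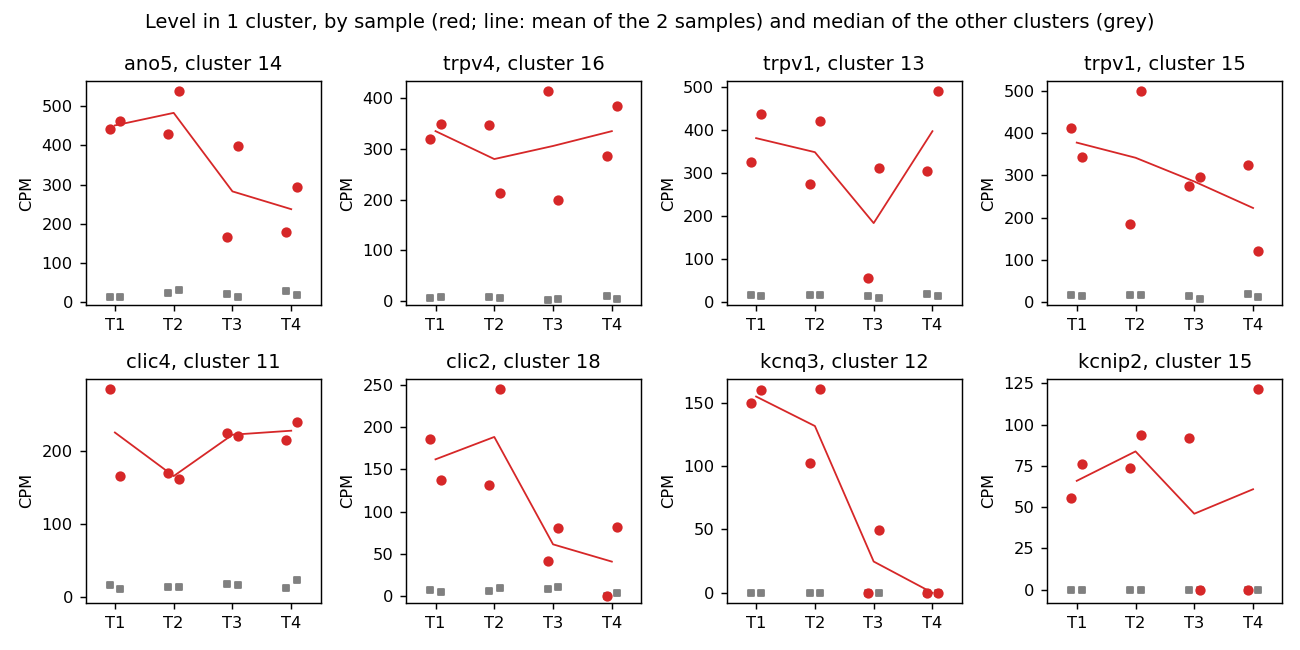
CPM (vertical axis) of 7 ion channel genes in a cluster where each was high, by sample and time point (red dots, line through the mean of 2 samples), with the median over the other clusters of the same sample (grey squares). The red dots lie above the grey squares in most samples, which the choice of clusters by these same values makes likely. For trpv4 in cluster 16 time points overlap, for clic4 in cluster 11 both T2 samples lie under both T3 samples, and kcnq3 stands at 102 to 161 CPM at T1 and T2 and at 0 to 49.4 at T3 and T4.

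The TRP genes trpv1 and trpv4 were highest in different nuclei. The heat- and capsaicin-gated channel of mammalian sensory neurons, trpv1, was highest in the myeloid-like clusters, at 327 ± 133 CPM in cluster 13 and 307 ± 119.7 in cluster 15, which did not differ beyond their spread (13 was higher in 4 of 8 samples). T cell-like cluster 2 had 81.5 ± 45.2 CPM, the median over clusters was 13.5 and the lowest 3.45, in cluster 9. Clusters 2, 13 and 15 held 371 of 680 trpv1 UMIs (54.6%) and 6.9% of all UMIs. Cluster 14, with which the myeloid-like clusters share markers, had 8.5 CPM of trpv1, while it was the cluster with the highest ano5.

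The osmotically and mechanically gated channel trpv4 was highest in cartilage-like cluster 16, at 314 ± 77.1 CPM, with 198 the lowest and 413 the highest sample. The unnamed cluster 19 followed with 181 ± 107 CPM, and pillar-like cluster 6 with 44.7 ± 14.5. Cluster 16 stood above 19 in 7 of 8 samples and held 33.9% of trpv4 UMIs in 1.97% of nuclei. Mammalian chondrocytes are known to carry this channel. In pavement-like cluster 1 trpv4 was at 2.92 CPM, near its lowest level of 1.95 in cluster 15. The pore gene trpc1 (85 UMIs) was highest in cluster 16 as well, at 24.7 ± 34.5 CPM from 12 UMIs, and trpc4ap lay, over clusters, between 18.8 and 63.7 ± 29.6 CPM.

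The proton-gated sodium channel gene asic1 was highest in cluster 3 (57.2 ± 37.1 CPM) and cluster 8 (52.8 ± 24.7), each the higher in 4 of 8 samples. These 2 clusters held 317 of 515 asic1 UMIs (61.6%) and 23.2% of all UMIs, and the level over all other nuclei was 9.4 CPM. Cluster 3 is unnamed, with sema5b, pla2g4f and the integrin gene itga6a (LOC106586229) among its leading genes. Cluster 8 had 6 of 6 pavement markers raised, as pavement-like cluster 1 did, but cluster 1 had only 3.0 CPM of asic1.

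Calcium channel genes were sparse. The pore gene cacna1g, of the low-voltage-activated type, had 58 UMIs, of which 38 (65.5%) fell in clusters 6 and 11 at 9.4 ± 5.1 and 10.1 ± 12.2 CPM. The auxiliary subunit gene cacna2d4 was highest in goblet-like cluster 10 at 21.1 ± 11.9 CPM, from 15 of 131 UMIs, above the next cluster in 6 of 8 samples. The calcium release channel of skeletal muscle, ryr1, had 18 of its 66 UMIs in the 42 nuclei of muscle-like cluster 20, which are 0.213% of all nuclei. This is 163 CPM with samples pooled, against 1.8 CPM over all other nuclei, and 8 of the 18 UMIs came from 1 T1 sample and 8 from 1 T3 sample.

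The time course was then compared over all nuclei and within clusters. In gene levels summed over all nuclei, a smaller share of a kind of nucleus and less RNA per nucleus cannot be told apart, which is why values within clusters or with the cluster mix held fixed are given beside each change. edgeR's quasi-likelihood test was used with Benjamini-Hochberg adjustment over all genes and a threshold of 0.01. Of the 21 genes, 20 passed the filter on low counts over all nuclei (cacna1g did not), and 0 were called in any of the 4 comparisons, by edgeR or by DESeq2.

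From T1 to T2, 0.00403% of 24815 genes were called, and 2 of 20 channel genes, both lower, had an unadjusted p under 0.05, beside 1751 of all genes. From T1 to T3 0.125% were called and 3 channel genes, all lower, against 4026 of all genes, passed the unadjusted level. From T2 to T3 0.302% were called and 4 channel genes, 3 of them higher, against 4429, passed it. From T3 to T4, the 24 h in seawater, 0% of genes were called, and 1 channel gene passed it, lower, against 504. The median log2 fold change of the 20 was -0.22, -0.09, 0.04 and 0.01 in these comparisons, beside -0.02, 5.1e-05, 0.0040 and 0.0029 over all genes.

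Within clusters, 45 pairs of channel gene and cluster could be tested among 79662 pairs of any gene. In each comparison 0 of the 45 were called by edgeR and 0 by DESeq2, where 0.0377%, 0.31%, 0.65% and 0% of all pairs were called from T1 to T2, T1 to T3, T2 to T3 and T3 to T4. Unadjusted p-values under 0.05 numbered 2, 3, 4 and 0 of the 45, beside 3888, 8202, 8745 and 2364 of the 79662 pairs of any gene. No test could be made in clusters 12 and 19, where no channel gene passed the filter, so kcnq3 in cluster 12 has values only. Cluster 20 had too few nuclei per sample for a fit of any gene.

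**Figure D3:**
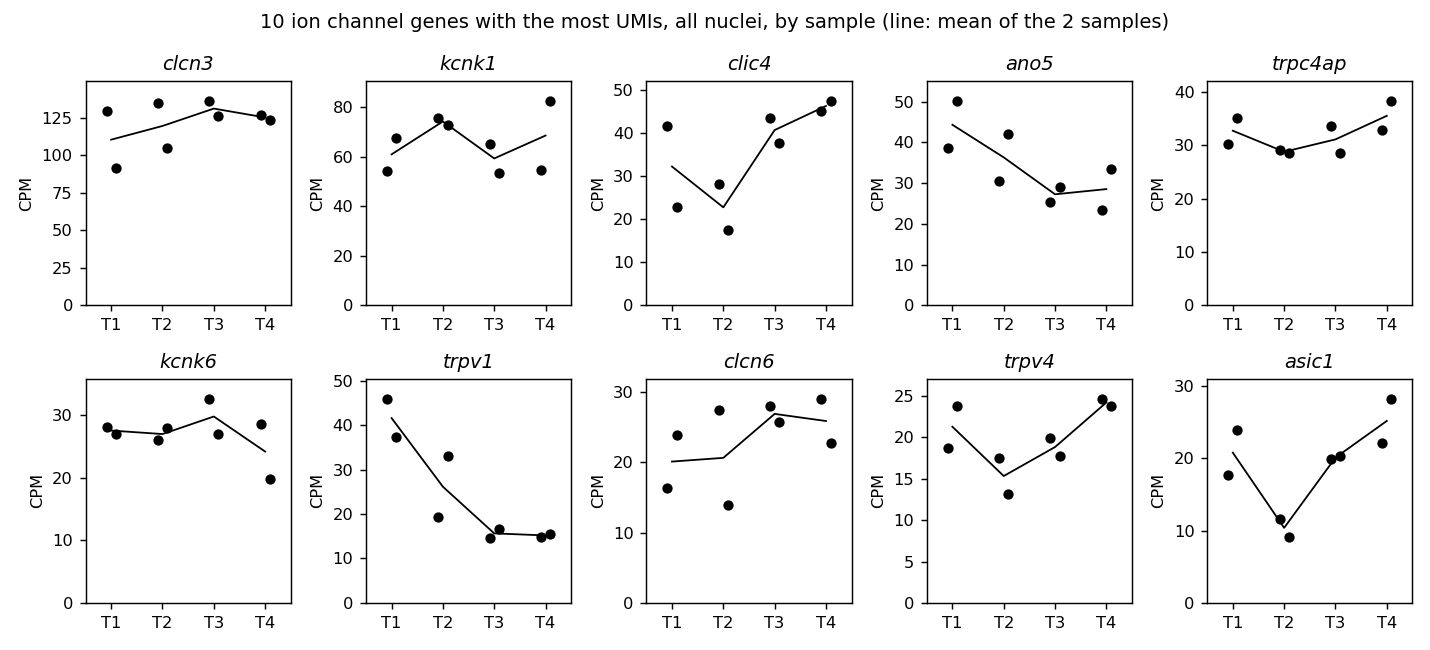
CPM over all nuclei (vertical axis, from 0, scaled per gene) of the 10 ion channel genes with the most UMIs, by sample at T1 to T4, with a line through the mean of the 2 samples. From T1 to T3 the samples of trpv1 and ano5 lie lower without overlap, asic1 is lowest at T2, and trpc4ap stays between 28.5 and 38.3 CPM in all samples.

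The largest movement among well-sampled genes was that of trpv1. Its level over all nuclei was 45.8 and 37.3 CPM at T1, 19.3 and 33.0 at T2, 14.7 and 16.6 at T3, and 14.8 and 15.5 at T4. All T3 and T4 samples lay under all T1 and T2 samples, and the 2 T2 samples lay far apart. From T1 to T3 the log2 fold change was -1.46 (SE 0.29), with an adjusted p of 0.0351 by edgeR's quasi-likelihood test, which missed the threshold. Without the filter on low counts the same change had an adjusted p of 4.2e-05, and over the other alternatives it lay between 0.0114 and 0.244.

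The nuclei that hold trpv1 became fewer over the same time. Clusters 2, 13 and 15 were 32.3% and 21.3% of nuclei at T1, 8.3% and 33.9% at T2, 6.1% and 9.5% at T3, and 4.6% and 6.2% at T4. The T2 sample with the smaller share was also the one with less trpv1. The other T2 sample had the largest share of the 8 but 33.0 CPM of trpv1, under both T1 samples (45.8 and 37.3). How share and level relate was not tested. Within clusters the log2 fold change from T1 to T3 was -0.93 (SE 0.67, adjusted p 0.76) in cluster 13, -0.44 in cluster 15 (adjusted p 0.849) and -0.71 in cluster 2 (adjusted p 0.769). With each cluster held at its mean share of UMIs over the 8 samples, trpv1 stood at 27.2 and 27.5 CPM at T1 and at 17.9 and 20.5 at T3, a log2 ratio of -0.51 that was computed without a test. At T3 and T4 the 3 clusters had as few as 10 nuclei per sample, and trpv1 in cluster 13 ranged from 55.9 to 310.2 CPM between the 2 T3 samples on 1 and 9 UMIs.

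A similar pair of values was found for ano5. Over all nuclei it was 38.6 and 50.1 CPM at T1, 30.5 and 42.1 at T2, 25.4 and 29.2 at T3, and 23.5 and 33.6 at T4. The T3 samples lay under both T1 samples (log2 fold change -0.72, SE 0.25, adjusted p 0.18), and T4 overlapped T2. Cluster 14 meanwhile went from 4.02% and 4.54% of nuclei at T1 to 1.02% and 1.89% at T3. Within it the log2 fold change from T1 to T3 was -0.58 (SE 0.48, adjusted p 0.984), and with the cluster mix held fixed the log2 ratio was -0.15.

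**Figure D4:**
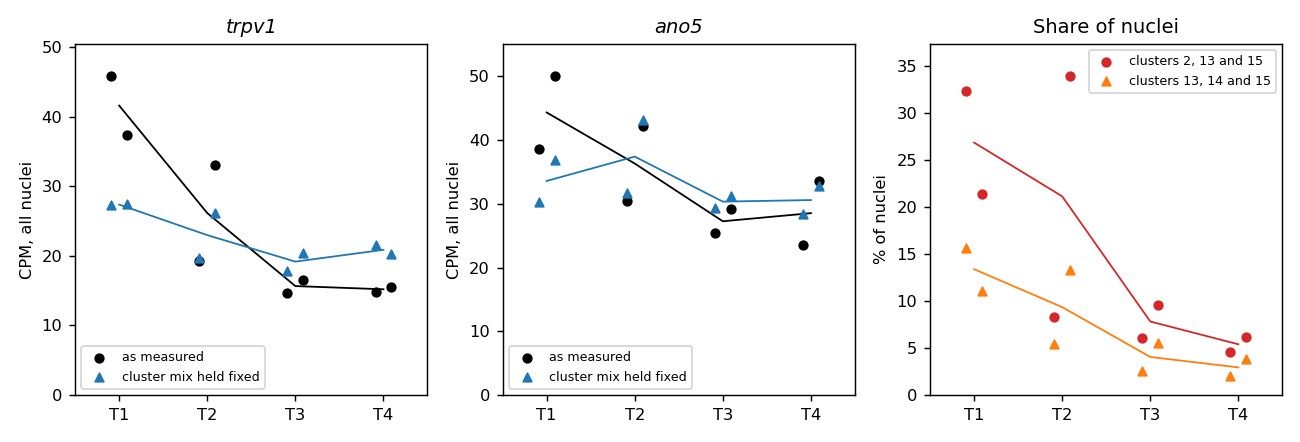
CPM over all nuclei (vertical axes of the left and middle plots) of trpv1 and ano5 by sample, as measured (black) and with each cluster at its mean share of UMIs (blue), and the percent of nuclei in clusters 2, 13 and 15 and in clusters 13, 14 and 15 (right plot). The log2 fold change of trpv1 from T1 to T3 is -1.46 in the fit and -0.51 with the mix held fixed, and both sets of clusters hold a smaller share at T3 than at T1.

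The proton-gated channel asic1 was lowest at T2. Its level over all nuclei was 17.7 and 23.8 CPM at T1, 11.6 and 9.17 at T2, 19.9 and 20.3 at T3, and 22.1 and 28.2 at T4, and both T2 samples lay under all others. The log2 fold change from T1 to T2 was -0.95 (SE 0.25, adjusted p 0.419) and from T2 to T3 0.88 (SE 0.25, adjusted p 0.0945), neither past the threshold. With the cluster mix held fixed the log2 ratios were -0.94 and 0.77.

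Within cluster 3 the T2 samples stood further apart from the rest. There asic1 was 98.5 and 124 CPM at T1, 18.6 and 16.8 at T2, 46.8 and 60.3 at T3, and 48.6 and 43.9 at T4, from 20, 25, 4, 6, 19, 18, 35 and 11 UMIs. No T2 sample reached any other, and the T3 and T4 samples lay between T2 and T1. The log2 fold change from T1 to T2 was -2.61 (SE 0.46, adjusted p 0.0128), just over the threshold. It passed without the filter on low counts (adjusted p 0.00261) and when any 1 of the T3 or T4 samples was left out (adjusted p 0.0021 to 0.00588), and missed it when a T1 or T2 sample was left out (0.0211 to 0.261) and by DESeq2 (0.269). It also missed it with library totals unscaled (0.0118), with the replicate block (0.0118) and without the nuclei of under 200 or of 2500 or more genes (0.0904), so that 5 of 13 alternatives passed.

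In cluster 8 asic1 moved less: 37.0 and 77.0 CPM at T1, 27.2 and 29.5 at T2, 38.4 and 84.6 at T3, and 45.2 and 83.8 at T4. The T2 samples were again the lowest, with a log2 fold change from T1 to T2 of -0.85 (SE 0.50, adjusted p 1). The difference in this change between clusters 3 and 8, tested as an interaction in a joint edgeR fit, was -1.75 (SE 0.72, adjusted p 1.0, unadjusted 0.0218). Over all nuclei outside clusters 3 and 8, asic1 was 7.9 and 7.6 CPM at T1 and 10.0 and 3.4 at T2. Of 40 such differences between the 2 clusters with the most UMIs of a gene, over 10 genes, 0 passed 0.01 and 1 had an unadjusted p under 0.05. These joint fits held no term for the sample, so the 2 clusters of a sample were treated as independent.

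**Figure D5:**
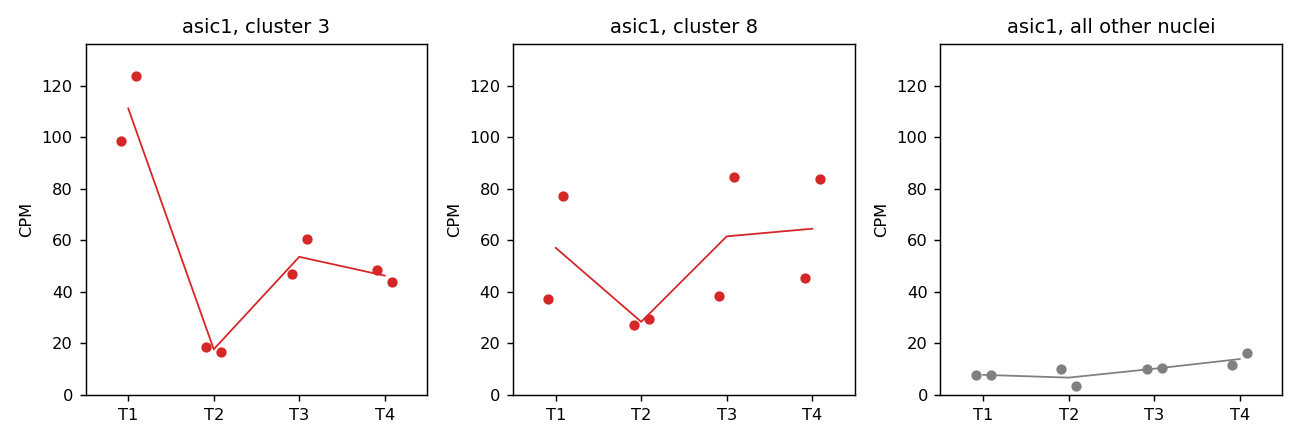
CPM of asic1 (vertical axes, same scale) by sample at T1 to T4 in cluster 3, in cluster 8 and over all other nuclei, with a line through the mean of the 2 samples. In cluster 3 the T2 samples stand at 18.6 and 16.8 CPM against 98.5 and 124 at T1, in cluster 8 at 27.2 and 29.5 against 37.0 and 77.0, and the other nuclei stay at or under 16.4.

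A further 3 genes passed the unadjusted level over all nuclei. The level of clic4 was 41.5 and 22.8 CPM at T1, 28.1 and 17.4 at T2, 43.5 and 37.8 at T3, and 45.2 and 47.3 at T4. From T2 to T3 its log2 fold change was 0.77 (SE 0.33, adjusted p 0.26), and with the cluster mix held fixed 0.41. Clusters 11 and 18 were 3.6% and 2.8% of nuclei at T2 and 6.1% and 7.2% at T3, and within cluster 11 clic4 was 169.9 and 161 CPM at T2 and 224 and 219.8 at T3. The log2 fold change of clic4 from T2 to T3 was 0.35 in cluster 11 and -0.08 in cluster 6, and neither was called. For cacna2d4, 3.51 and 2.73 CPM at T2 stood against 6.92 and 6.14 at T3 (log2 fold change 0.99, SE 0.41, adjusted p 0.234), and with the cluster mix held fixed the log2 ratio was 0.92.

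The third was kcnq3, with 3.75 and 4.15 CPM at T1, 1.40 and 2.23 at T2, 0.865 and 1.23 at T3, and no listing in either T4 sample. Each time point lay under the one before it without overlap, on 14, 12, 4, 9, 3 and 4 UMIs. From T1 to T3 the log2 fold change was -1.92 (SE 0.71, adjusted p 0.223). Because both T4 samples were at 0, no fold is given from T3 to T4, where the adjusted p was 1. Cluster 12 was 3.15% and 5.40% of nuclei at T1, 1.62% and 3.37% at T3, and 1.24% and 2.87% at T4, and with the mix held fixed the log2 ratio from T1 to T3 was -1.75.

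The broad genes showed no change past the threshold, and their errors bound what could be seen. Levels of clcn3 were 129 and 91.5 CPM at T1 and 127 and 124 at T4, those of kcnk1 54.1 and 67.7 at T1 and 54.8 and 82.3 at T4, and those of kcnk6 28.1 and 26.9 at T1 and 28.5 and 19.9 at T4. The T1 and T4 samples of each overlapped. For trpc4ap all 8 samples lay between 28.5 and 38.3 CPM, with log2 fold changes of -0.13 to 0.20 and SEs of 0.20. For trpv4, samples over all nuclei were 18.8 and 23.8 CPM at T1, 17.5 and 13.1 at T2, 19.9 and 17.8 at T3, and 24.6 and 23.8 at T4. Both T2 samples lay under all others and both T3 samples under both T4 samples, while in its leading cluster 16 values ran from 198 to 413 CPM with overlap between time points. Standard errors of 0.54 to 1.12 on the log2 scale in kcng4, trpc1, kcnk5, ryr1, kcnip2 and kcnj3 leave changes of several fold undetectable in these genes.

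For the 2 genes with the most UMIs, 1 change in 1 cluster each is given, out of the 45 pairs tested in each comparison. The same change in other clusters stands beside it. Neither change passed the adjustment, so no difference was established. From T1 to T2 clcn3 in cluster 9 went from 275 and 228 CPM to 131 and 99.4 (log2 fold change -1.07, SE 0.36, adjusted p 0.712), and stood at 207 and 208 at T3. The T2 samples were the lowest of the 8 there. In clusters 1 and 8 the log2 fold change of clcn3 from T1 to T2 was smaller, at -0.11 and -0.19. In pavement-like cluster 1, kcnk1 was 171 and 143 CPM at T2, 78.0 and 114 at T3, and 121 and 175 at T4 (T2 to T3 log2 fold change -0.82, SE 0.32, adjusted p 0.233). The T3 samples were the lowest of the 8 in that cluster. In cluster 8 the log2 fold change of kcnk1 from T2 to T3 was -0.21.

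Other ion transport genes were counted for comparison. The 29 companions, chosen by name, included a sodium pump subunit, FXYD genes, cotransporters, an exchanger, an aquaporin, and calcium and proton pumps. They also included channel genes outside the name rule, such as lrrc8a, orai1, p2rx1 and p2rx4, so they do not set transporters against channels. Some, such as slc9a3r1 and slc4a1ap, matched a prefix only. Of the 29, 26 had at least 30 UMIs and 24 were tested over all nuclei. There edgeR called 1, nkcc1a, higher at T3 than T2 (log2 fold change 1.95, SE 0.27, adjusted p 0.00794), beside 0.302% of all genes. DESeq2 called 3 companions from T2 to T3 and 1 from T1 to T3. Within clusters, 2 of 152 tests of companions were called by edgeR in a comparison, beside 0.65% of all pairs, both nkcc1a from T2 to T3, in MRC-like cluster 7 (log2 fold change 1.74, adjusted p 0.00255) and ionocyte-like cluster 17 (3.62, adjusted p 0.00132), where DESeq2 called 1. Locus numbers whose symbol in the gene tables matches the channel name rule numbered 46, of which 28 had at least 30 UMIs. Over all nuclei 0 of the 23 tested were called by edgeR, while DESeq2 called 1 from T1 to T3 and 1 from T2 to T3. In the 4 comparisons 2, 5, 7 and 0 of the 23 had an unadjusted p under 0.05, beside 1751, 4026, 4429 and 504 of 24815 genes. Within clusters 1 of 46 was called by edgeR, beside 0.65% of all pairs, and 2 by DESeq2, all from T2 to T3.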

How the data were processed

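Reads were aligned and counted by the authors in Cell Ranger (version 3.0.1 per the submitters' processing notes) against genome build ICSASG_v2, annotated by NCBI. Deposited values are raw UMI counts per gene and nucleus, without normalization, 1 library per sample. Members and lists were chosen with earlier results of these data known. All nuclei were used. No doublet caller was run, and nuclei with 2500 or more genes, 4.39% of nuclei, were removed in an alternative.

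Nuclei were clustered with Seurat 5.3.0 (R 4.3.3): samples of a time point pooled, 2000 variable genes after leaving out the 25 channel and 16 hemoglobin genes, anchors with T1 as reference, 30 dimensions, resolution 0.4. Names needed at least 3 raised markers of a kind, and some clusters that had them, such as 4, 8 and 14, were still left unnamed. A difference from the study's names may come from this rebuilding. UMIs were summed per sample, or per sample and cluster with at least 10 nuclei, and tested with edgeR 4.0.16 (quasi-likelihood, TMM, filterByExpr with a minimum count of 10, Benjamini-Hochberg adjustment over all genes of a fit, threshold 0.01, 4 residual degrees of freedom). Alternatives were DESeq2 1.42.0, other filters, scalings, clusterings and thresholds, a replicate block and each sample left out. On data simulated for T1 against T3 over all nuclei, 73 of 194 genes changed by 2 on the log2 scale (37.6%) were recovered among 25483 genes.

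Named genes were any called, the 10 with the most UMIs, the 10 with the largest share of UMIs in 1 cluster, and the most counted of each family. The genes clic2, trpc1, kcnk5 and kcnj3, and the locus numbers named, fall outside this rule and were named after their values were seen. Single-cluster values rest on few UMIs, and their SDs include counting error. Names come from the count tables, and 11 of the 25 symbols were found in the RefSeq gene table of Ssal_v3.1, another build, from which no coordinates were taken. Salmonid genes often have near-identical copies, and how reads shared by copies were counted was not given in the sources used here.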

Additional observations from a re-analysis of the deposited data

How the results depend on the processing

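Counts of called channel genes were recomputed under the alternatives other than the clusterings. With other clusterings only the count of genes with 1 leading cluster was recomputed, so calls within clusters rest on 1 clustering. DESeq2 size factors in edgeR were tried over all nuclei only. Of 130 counts, including those of where genes lead, 118 were the same as reported. The reported counts of calls were all 0. Without the filter on low counts, or at a threshold of 0.05, 1 gene was called over all nuclei from T1 to T3 (trpv1) and 1 within clusters from T1 to T2 (asic1 in cluster 3). Leaving out each sample gave 0 to 1 calls within clusters from T1 to T2, the 1 being asic1 in cluster 3 without either T3 or either T4 sample, and 0 in the other comparisons. The cause of these shifts was not tested. The number of genes with 1 leading cluster, 2 as reported, was 2 when the share of nuclei with a UMI was used after thinning to 500 UMIs (775 shallower nuclei left out), 4 when 6 of 8 samples sufficed, and 2 to 4 when each sample was left out, being 4 without T4 replicate 1 and 3 without either T3 sample. For 10 of the single changes named, 139 recomputed values held no change of sign. The 10 were chosen from the same data, mostly for an unadjusted edgeR p under 0.05 over all nuclei. The last was asic1 in cluster 3 from T1 to T2. Refits used the same samples or left out 1, so a kept sign was likely and is no independent check. Changes of clcn3 and kcnk1 within clusters, of kcnj15 and of nkcc1a were not among the 10, nor was kcnq3 from T3 to T4. Among the 10, the widest spread in log2 fold change was that of trpv1 from T2 to T3, -1.18 to -0.38. Holding the cluster mix fixed was chosen after the data were seen.

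Replicate numbers are shared by all time points, but same-numbered samples deviated together by more than 0.1 in 1 of 6 pairs of time points only (T3 and T4, r = 0.20, over genes), so they were not taken as paired. With the replicate block 0 channel genes were called in every comparison, over all nuclei and within clusters, as without it. Depth limits the genes with the fewest UMIs most: 14 of the 21 had at least 100 UMIs, and the placement of the others rests on counts of 4 to 34 UMIs in the highest cluster.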

Other observations

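Some channel genes listed only under a locus number were highest in MRC-like and ionocyte-like nuclei. Of 28 such loci with at least 30 UMIs, 6 were highest in MRC-like cluster 7 or ionocyte-like cluster 17, where 0 of the 21 genes named by symbol were, and 7 had the same cluster highest in at least 7 of 8 samples. Of the 6, only kcnj15 and kcnj1 (LOC106581096) were among these 7. The SD exceeded the mean in cacna1bb (LOC106563134, 5.40 ± 15.3 CPM) and kcnh2b (LOC106590277, 23.4 ± 37.6). Both clcn1 (LOC106588436, 10.5 CPM) and kcnma1a (LOC106613356, 9.17) were close to the next cluster (9.72 and 8.89). The share of all genes highest in clusters 7 and 17 was not computed. Unlike the genes named by symbol, these loci were not left out of the genes that could make the clusters. The counts of 6 and 0 are therefore not like for like. These placements are descriptions with no test, and symbols were taken from the gene tables. The inward rectifier kcnj15 (LOC106603448) stood at 379.5 ± 165 CPM in cluster 17 and 267 ± 135 in cluster 7. Over all nuclei it was 82.6 and 79.8 CPM at T1, 67.7 and 79.6 at T2, 33.1 and 34.1 at T3, and 36.7 and 37.5 at T4, without overlap between the first 4 and the last 4 samples. From T2 to T3 the log2 fold change was -1.22 over all nuclei (SE 0.20, adjusted p 0.0173 by edgeR), -1.57 in cluster 7 (SE 0.36, adjusted p 0.0118) and -3.91 in cluster 8 (SE 0.55, adjusted p 0.000641), where alone it was called. In cluster 8 its samples were 54.4 and 68.8 CPM at T2 and 4.43 and 4.23 at T3.

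Other loci were placed in other clusters. The anoctamin ano7 (LOC106580699) was highest in goblet-like cluster 10 in 7 of 8 samples, at 147 ± 56.3 CPM, with 65.7% of its 178 UMIs there. The voltage-gated potassium channel kcnh2 (LOC106599276) was highest in cluster 11 in 8 of 8 samples, at 110.0 ± 43.4 CPM, with 70.5% of its 193 UMIs. A second locus named clic2 (LOC106611523) was highest in vascular-like cluster 18 in 8 of 8 samples, at 171 ± 222 CPM. The clic2 gene named by symbol was highest there in 6 of 8 samples. A second ano5 locus (LOC106587476, 86 UMIs) was highest in cluster 18 at 18.7 ± 17 CPM and not in cluster 14. That placement is weak: 8.14% of its UMIs fell there and cluster 11 followed at 13.1 CPM. No cluster was highest for it in more than 3 of 8 samples. The single locus clic3 (LOC106563124) held 13387 UMIs, more than the 12334 of all 25 named genes together. It stood at 1022 ± 175 CPM in pavement-like cluster 1 and at 974 in cluster 9.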
